A study of Drosophila melanogaster with 13 samples.

Results

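The Antennapedia complex of *Drosophila melanogaster* is the cluster on chromosome arm 3R that holds the Hox genes lab, pb, Dfd, Scr and Antp. Its open chromatin in larval eye-antennal discs was described by the merged peaks that lie within chr3R:2480000-2835000 of the dm3 genome, a window of 355 kb. All 117 merged peaks in this window, of 36506 in the whole count table and 8433 on the arm, were taken, without a filter on their counts. They are numbered here from peak 1 at the lab end to peak 117 at the Antp end.

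Hox genes encode homeodomain transcription factors that give the segments of an animal their identity, and their order on the chromosome follows the order of the body regions they specify. In the fly, lab, pb and Dfd act in the head and mouthparts, Scr in the labium and prothorax, and Antp in the thorax. Antp takes its name from mutants in which its misexpression turns antennae into legs, so that the eye-antennal disc is a tissue in which it is normally held off. Antp is transcribed from a pair of promoters that lie far apart. In the current RefSeq annotation, 43 genes lie from lab to Antp, of which 19 encode proteins. Between lab and pb are genes of cuticle proteins, between pb and Dfd are zen2, zen, bcd and Ama, and between Scr and Antp is ftz, where zen and ftz derive from Hox genes and bcd patterns the anterior of the embryo. That annotation uses another genome build than the peaks, so it gave only the order of the genes, and no peak was assigned to a gene. Whether the tissue shows its own marker genes was not analysed here for the same reason.

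ATAC-seq, in which a transposase inserts adapters into accessible DNA, was done on 7 samples, and FAIRE-seq, which extracts the nucleosome-poor DNA of fixed and sheared chromatin, on 4. The wild type ATAC-seq samples came from w;;FRT82, DGRP-208 and Optix-GFP flies. The wild type FAIRE-seq samples came from w;;FRT82 and CantonS. For the tumors, flies with eyFlp on a y,w chromosome, an act>y+>Gal4 driver, UAS-GFP and a chromosome with FRT82 and Tub-Gal80 were crossed to y,w flies with UAS-RasV12 on one and FRT82 with scrib2 on another chromosome. There, eyFlp makes clones in the eye-antennal disc that lack the polarity gene scrib and express oncogenic Ras. One early and 1 late tumor sample was measured by each technique. The 2 Upd samples, measured by ATAC-seq alone, came from GMR-gal4 with UAS-UPD:GFP, which drives a ligand of the JAK/STAT pathway in the differentiating part of the eye field. Tumors and Upd discs are mixtures of cells with and without the transgene, and the wild type samples differ in strain, so that the spread between wild types includes strain differences. The tumors carry FRT82 chromosomes and share that label with w;;FRT82 alone among the wild types. All samples are labelled with the wandering larval stage, although the study's methods place the late tumors at a later age. CTCF ChIP-seq was done on CantonS discs.

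Between 2375435 and 10871706 reads per sample fell in merged peaks, of which between 6638 and 43539 fell in the window. Values below are in CPM, the usual depth-scaled unit of reads, taken relative to the reads in all merged peaks of the sample after TMM scaling. Replicates differed by more than counting error, since pairs of samples of a group gave a chi-square between 2.87 and 12.2 for each degree of freedom over all merged peaks. DGRP-208 had the lowest of the 3 wild type ATAC-seq values in 73 of the 117 peaks, and FRT82 stood apart at a few neighbouring peaks described below. In bulk samples, fewer cells with an open region and a smaller opening in each cell cannot be told apart.

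The window held 32.96 merged peaks per 100 kb, against 30.23 on the whole arm. The peaks had a median width of 292 bp (range 100 to 1065), compared with 269 bp over all merged peaks, and together covered 40.9 kb, or 11.5% of the window. The spacing was uneven. The longest stretch without a peak, 15048 bp, ran from 2552259 to 2567306 between peaks 35 and 36, and the next longest were 11.6 kb between peaks 76 and 77, 11.6 kb between peaks 46 and 47, 11.1 kb between peaks 80 and 81 and 10.0 kb between peaks 37 and 38.

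In wild type discs, 6 peaks stood above all others of the complex in ATAC-seq level per length. Peak 117 (chr3R:2826258-2827012), the last peak of the window, reached 395 ± 132 CPM per kb (SD, n = 3), which is at the 99.6th percentile of all merged peaks. Peak 53 (chr3R:2617165-2617687) had 316 ± 68.6, peak 78 (chr3R:2674187-2674814) 300.1 ± 62.2, peak 16 (chr3R:2504182-2504663) 283 ± 122, peak 86 (chr3R:2718763-2719560) 253 ± 63.9 and peak 36 (chr3R:2567307-2568102) 223 ± 78.6 CPM per kb. These SDs are as large as the steps between neighbours in this order, so the order among the 6 peaks is not fixed by these samples. The next peak, peak 79, had 162 ± 15.99 CPM per kb, which is within the SD of peak 36, and the median of the 117 peaks was 39.3.

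The 6 highest peaks were spread over the complex, with 62.6 kb between peaks 16 and 36, then 49.1, 56.5 and 43.9 kb to peaks 53, 78 and 86, and 106.7 kb from peak 86 to peak 117. All 6 were called as peaks in all 11 samples. In FAIRE-seq their wild type levels ranked between the 80.2nd and the 98.7th percentile of all merged peaks. They took between 29.3% and 37.2% of the summed CPM of the window in the ATAC-seq samples and between 19.2% and 23.1% in the FAIRE-seq samples. The 6 peaks were chosen by their wild type ATAC-seq level, and that choice favours a larger share in ATAC-seq. No peak of the 6 overlapped a CTCF peak by the rule used below, and whether they lie at start sites of the Hox genes was not tested.

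**Figure D1:**
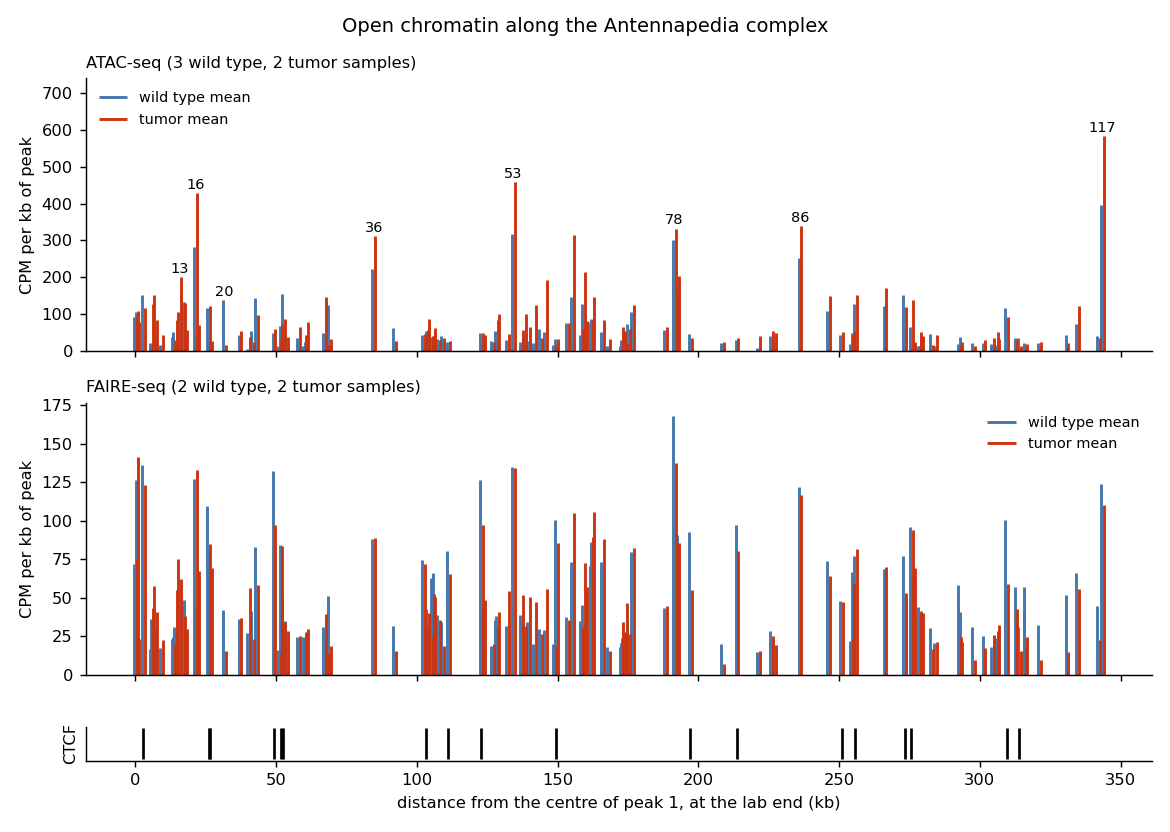
Level of the 117 merged peaks of the Antennapedia complex, as CPM per kb of peak, against the distance in kb from the centre of peak 1, with blue lines for the mean of the wild types and red lines for the mean of the tumors in ATAC-seq (top) and FAIRE-seq (middle), each drawn slightly to the side of the other, and black ticks for the 18 peaks that overlap a CTCF peak (bottom). Peaks 16, 36, 53, 78, 86 and 117 stand above the rest in wild type ATAC-seq, while peak 20 is high in wild types and low in tumors and peak 13 the reverse.

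Peak 117 had 317 CPM in FRT82, 190 in DGRP-208 and 388 in Optix-GFP by ATAC-seq. It had 440.5 in the early and 439 in the late tumor, and 255 and 287 in the Upd samples. In FAIRE-seq the values were 89.5 in FRT82, 97.2 in CantonS, 97.0 in the early and 69.4 in the late tumor. Both tumors thus lay above the wild types in ATAC-seq, while the FAIRE-seq groups overlapped. Peak 16, the first of the 6 from the lab end, had 158, 69.8 and 181 CPM in the 3 wild type ATAC-seq samples, in the order given above, 210 and 203 in the tumors, and 126 and 167 in the Upd samples. In all 6 peaks DGRP-208 was the lowest and Optix-GFP the highest of the wild types in ATAC-seq.

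None of the 6 highest peaks passed the threshold in any comparison of tumors or Upd discs with wild types. Their log2 fold change in tumors lay between -0.07 and 0.35 over both techniques, between 0.15 and 0.60 in ATAC-seq and between -0.25 and 0.12 in FAIRE-seq. The lowest adjusted p was 0.0647, for peak 53 in ATAC-seq (edgeR's quasi-likelihood test, Benjamini-Hochberg adjustment over all merged peaks, threshold 0.01). The pattern over the 11 samples was closest to that of peak 117 in peaks 36, 53 and 86, with Pearson correlations of 0.986, 0.985 and 0.985 of log2(CPM + 1). These are descriptions over samples that share a technique and its depth.

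**Figure D2:**
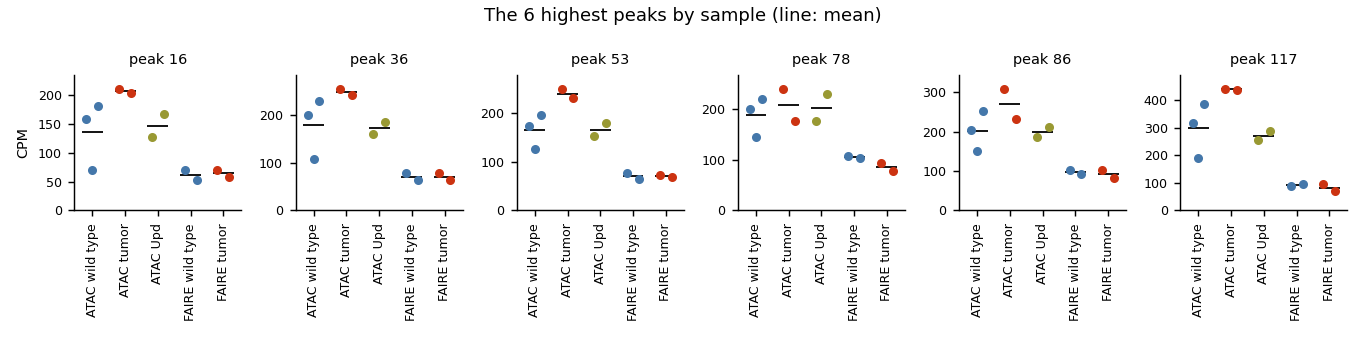
CPM of the 6 peaks with the highest wild type ATAC-seq level per length, by group, with 1 point per sample, a black line for the mean, blue for wild types, red for tumors (early left, late right) and olive for Upd. In ATAC-seq the lowest wild type point is DGRP-208 in every panel, and the FAIRE-seq groups overlap in all panels but that of peak 78.

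Tumors were compared with wild types to ask which regions open or close during Ras-driven tumor growth. Over both techniques (5 wild type and 4 tumor samples, with the technique as a term of the model), 15 of the 117 peaks opened in the tumors and 9 closed. Of all merged peaks, 11.6% opened and 12.5% closed in this comparison, so that the share of opening peaks in the complex, 12.8%, was near the background and that of closing peaks, 7.7%, below it. The median log2 fold change of the 117 peaks was 0.17, against -0.03 over all merged peaks. All 4 tumors lay above the wild types of their technique in 17 peaks (14.5%), against 17% of all merged peaks, and below them in 11 peaks (9.4%), against 18.3%. Among the called peaks, groups did not overlap in 12 of the 15 opening and 8 of the 9 closing peaks. These counts rest on the values that gave the calls, so they describe the called peaks and test nothing. The share among all called merged peaks was not taken. Opening peaks 11, 12, 13, 22, 57, 66, 71, 74 and 107 were called by the peak caller in tumors only. Closing peaks 20, 23, 99, 110, 111 and 114 were called in no tumor. These peaks entered the merged set only through samples other than those in which they were lower, so their fold changes are not independent of that choice. With the early or the late ATAC-seq tumor left out, 9 peaks opened and 3 closed in either case, against 8.11% and 6.54% of all merged peaks without the early and 7.22% and 6.44% without the late one. Without the late FAIRE-seq tumor 10 opened and 6 closed, against 8.90% and 9.12%. Without the early FAIRE-seq tumor 23 opened (19.7%) and 8 closed, against 13.2% and 14.4%.

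Of the 15 opening peaks, 11 lie in 2 stretches, whose limits were taken from opening peaks, so that the counts below describe the stretches and test nothing. Near the lab end, 9 merged peaks (peaks 5 to 13) lie within 10.4 kb, of which 5 opened over both techniques and 7 in ATAC-seq alone. Peak 13 (chr3R:2498318-2498910) had the largest opening of the complex. Its ATAC-seq values were 11.6, 11.4 and 13.9 CPM in FRT82, DGRP-208 and Optix-GFP, and 124 and 113 in the early and the late tumor. Its FAIRE-seq values were 13.4 in FRT82, 12.4 in CantonS, and 37.0 and 36.9 in the tumors. The groups were far apart in both techniques, and the peak caller found peak 13 in all 4 tumors and in no other sample. The log2 fold change was 2.52 (SE 0.28, adjusted p = 4.12e-05, edgeR), 3.27 in ATAC-seq (adjusted p = 6.32e-07, edgeR) and 1.57 in FAIRE-seq (adjusted p = 0.00302, edgeR). Peak 13 was the only opening peak of the complex past the threshold in FAIRE-seq.

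Peak 12 (chr3R:2497698-2497981), which ends 336 bp before peak 13, had 6.85, 5.30 and 4.75 CPM in the wild types and 33.1 and 26.8 in the tumors by ATAC-seq. In FAIRE-seq the values were 10.5 and 5.78 in the wild types and 19.95 and 22.8 in the tumors. It too was called in the 4 tumors only, as was peak 48 of the other peaks of the complex. Calls in all 4 tumors and in no wild type were found for 3 of the 117 peaks, and for 606 of the 36506 merged peaks. The log2 fold change of peak 12 was 1.97 (SE 0.26, adjusted p = 9.88e-05, edgeR). Peak 11 (chr3R:2497346-2497510), another 187 bp before, rose by 1.27 on the log2 scale (SE 0.28, adjusted p = 0.00225, edgeR), although without the early ATAC-seq tumor its adjusted p was 0.0165. Peaks 9 and 10, the next ones towards lab, which were chosen after their values were seen, had log2 fold changes of -0.60 and -0.59, with adjusted p of 0.18 and 0.093 (edgeR). Peak 10 ends 221 bp before peak 11.

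Peaks 5 and 6 (chr3R:2488524-2488804 and chr3R:2488933-2489400), separated by 128 bp, also opened. Peak 5 had 8.60, 5.43 and 3.93 CPM in wild types and 40.2 and 30.8 in tumors by ATAC-seq, and 5.44 and 4.08 against 12.9 and 11.4 by FAIRE-seq. Peak 6 had 11.7, 10.6 and 5.24 against 84.1 and 57.1 by ATAC-seq, and 17.4 and 16.6 against 31.1 and 22.7 by FAIRE-seq. Tumors were above wild types in every sample of both. The log2 fold changes were 2.08 (SE 0.30) for peak 5 and 1.94 (SE 0.38) for peak 6. Peaks 7 and 8, between these and peak 9, passed the threshold in ATAC-seq alone, with log2 fold changes of 1.08 and 1.56 there, and were chosen after their values were seen.

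The other stretch ran from chr3R:2624541 to chr3R:2657106, where 6 of 18 merged peaks over 32.6 kb (peaks 57 to 74) opened and none closed. The ATAC-seq values of peak 59 (chr3R:2628235-2629137) were 56.6, 34.6 and 45.0 CPM in wild types and 146 and 199 in tumors, and the FAIRE-seq values were 32.2 and 20.002 in wild types and 35.8 and 64.6 in tumors. The groups did not overlap in either technique, and the late tumor was the highest in both. The log2 fold change was 1.503 (SE 0.25, adjusted p = 0.000396, edgeR). Peak 57 (chr3R:2624541-2624829) rose from 7.93, 4.24 and 5.56 to 33.8 and 38.9 CPM in ATAC-seq, and had 6.88 and 4.65 against 8.41 and 19.1 in FAIRE-seq, with a log2 fold change of 2.07 (SE 0.33). Peak 58 between them had a log2 fold change of -0.52 (adjusted p = 0.0837, edgeR) and was chosen after its values were seen.

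Peak 71 (chr3R:2655592-2655805) had 3.76, 1.85 and 2.78 CPM in wild type and 8.60 and 18.9 in tumor ATAC-seq samples, and peak 74 (chr3R:2656949-2657106) had 0.94, 0.40 and 1.47 against 2.80 and 4.15. In FAIRE-seq, peak 71 had 4.35 and 3.38 in wild types and 5.28 and 9.47 in tumors, and peak 74 had 3.99 and 4.08 against 6.06 and 8.65. Both are narrow peaks with few reads. Their log2 fold changes were 1.74 (SE 0.36) and 1.36 (SE 0.36). Peak 74, with an adjusted p of 0.00852 (edgeR), lost the threshold in 7 of the 9 fits that left out 1 sample, up to an adjusted p of 0.0517, and peak 71 lost it without the late ATAC-seq tumor (adjusted p = 0.0155, edgeR).

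Peaks 63 to 66, which span 5.0 kb within it, were higher in the FRT82 ATAC-seq sample than in the other wild types of that technique. Each strain has 1 sample per technique, so that strain and library cannot be told apart. Peak 65 (chr3R:2641840-2642366) had 136 CPM in FRT82 against 29.8 in DGRP-208 and 35.2 in Optix-GFP by ATAC-seq, a ratio of 4.18 to the mean of these samples that lay at the 99.77th percentile of all merged peaks. It had 107 and 120 CPM in the tumors and 21.6 and 25.5 in the Upd samples. By FAIRE-seq, however, FRT82 had 22.8 and CantonS 24.9, and the tumors had 35.8 and 40.5. In ATAC-seq the tumors were thus close to the FRT82 sample and apart from the other wild types, while the FRT82 FAIRE-seq sample was not above CantonS, and peak 65 did not pass the threshold (log2 fold change 0.70, SE 0.35, adjusted p = 0.131, edgeR). Peak 65 was chosen after its values were seen.

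Peak 66 (chr3R:2642854-2643050) had 9.14 CPM in FRT82 against 2.25 in DGRP-208 and 2.29 in Optix-GFP, and 16.6 and 14.99 in the tumors. In FAIRE-seq it had 4.35 in FRT82, 4.79 in CantonS and 10.4 and 12.1 in the tumors. Its log2 fold change was 1.55 (SE 0.37, adjusted p = 0.00404, edgeR), and the threshold was lost without either ATAC-seq tumor, the FRT82 FAIRE-seq sample or the late FAIRE-seq tumor, up to an adjusted p of 0.0183. Peak 63 (chr3R:2638043-2638832) had 169 CPM in FRT82 against 83.0 and 96.7 in the other wild types, 254 and 242 in the tumors and 72.2 and 72.3 in the Upd samples, with a log2 fold change of 0.82 (SE 0.22, adjusted p = 0.00748, edgeR). In both peaks the tumors lay above FRT82 as well. Without the FRT82 ATAC-seq sample, the log2 fold changes of peaks 63, 65 and 66 were 0.99, 1.24 and 2.01, and the adjusted p were 0.00368, 0.00149 and 0.000675 (edgeR), so that peak 65 then passed the threshold. The part of the strain or of this library in the tumor values of peaks 63, 65 and 66 was not tested.

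The other 4 opening peaks lay outside these stretches. Peak 22 (chr3R:2523094-2523290) was almost closed in wild type ATAC-seq, with 0.54, 1.06 and 0.98 CPM (between 4 and 8 reads) against 6.45 and 8.08 in the tumors, while its FAIRE-seq values were 6.52 and 4.23 in wild types and 10.6 and 11.8 in tumors. Its log2 fold change was 2.04 (SE 0.38, adjusted p = 0.000753, edgeR). Peak 107 (chr3R:2789223-2789750), the only opening peak near the Antp end, had 2.42, 4.37 and 2.95 CPM against 16.8 and 17.5 in ATAC-seq. In FAIRE-seq it had 6.16 and 9.58 in wild types, 8.61 in the early and 25.3 in the late tumor, so that the early tumor lay within the wild types there. Its log2 fold change was 1.77 (SE 0.36, adjusted p = 0.00132, edgeR). The remaining opening peaks, peaks 32 and 33, had log2 fold changes of 1.16 and 1.08.

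Closing peaks lay towards both ends of the complex, and no peak between peaks 37 and 99 closed. Peak 20 (chr3R:2514052-2515116), at 1065 bp the widest peak of the complex, closed the most. By ATAC-seq it had 140 CPM in FRT82, 130 in DGRP-208 and 171 in Optix-GFP, and 17.9 and 18.3 in the early and the late tumor. In FAIRE-seq the values were 55.1 in FRT82, 34.4 in CantonS, and 19.8 and 13.9 in the tumors. The Upd samples, with 124 and 105, lay below the wild types and far above the tumors, with a log2 fold change from wild types of -0.35 (adjusted p = 0.735, edgeR). The peak caller found peak 20 in all 5 wild type and both Upd samples and in no tumor. Calls in all 5 wild types and in no tumor were found for peak 20 alone of the 117 peaks, and for 353 of the 36506 merged peaks. The log2 fold change was -2.31 (SE 0.31, adjusted p = 9.58e-05, edgeR), -3.02 in ATAC-seq and -1.35 in FAIRE-seq. Its FAIRE-seq adjusted p of 0.00975 (edgeR) made it the only closing peak past the threshold in that technique.

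Peak 35 (chr3R:2551724-2552258), the last peak before the longest gap, had 70.3, 69.5 and 59.2 CPM in wild types, 17.4 and 17.4 in tumors and 71.9 and 79.97 in Upd discs by ATAC-seq. In FAIRE-seq the values were 31.5 and 23.2 in wild types and 12.9 and 7.18 in tumors, with a log2 fold change of -1.74 (SE 0.22, adjusted p = 7.23e-05, edgeR). Peak 37 (chr3R:2574947-2575325) had 23.2, 23.2 and 25.2 CPM against 9.89 and 10.2 in ATAC-seq and 15.2 and 8.87 against 5.87 and 5.87 in FAIRE-seq. Peak 15 (chr3R:2500564-2501049) had 60.6, 52.6 and 82.0 against 30.8 and 23.1 in ATAC-seq and 28.3 and 18.9 against 16.4 and 12.4 in FAIRE-seq. Peak 23 (chr3R:2524624-2524886) had 13.3, 12.98 and 17.2 against 6.67 and 5.21 in ATAC-seq. Groups did not overlap in any of these peaks. The log2 fold changes of peaks 37, 23 and 15 were -1.16 (SE 0.23), -1.10 (SE 0.25) and -1.05 (SE 0.23), and those of peaks 23 and 15 lost the threshold without either ATAC-seq tumor, up to an adjusted p of 0.0246.

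At the Antp end, peaks 99, 110, 111 and 114 closed with log2 fold changes of -1.30 (SE 0.30), -1.25 (SE 0.30), -1.63 (SE 0.43) and -1.29 (SE 0.35). Peak 110 (chr3R:2796910-2797200) had 9.81, 6.36 and 13.6 CPM against 3.66 and 3.51 in ATAC-seq, and 10.9 and 7.18 against 4.89 and 4.24 in FAIRE-seq. Peak 99 (chr3R:2765824-2766146) had 13.2, 11.1 and 21.1 against 4.30 and 5.32 in ATAC-seq. Peaks 111 and 114 are narrow, at 100 and 135 bp, and rest on few reads, with between 4 and 60 reads per sample for peak 111. Peak 111 was called in the CantonS FAIRE-seq sample alone and peak 114 in the Optix-GFP ATAC-seq sample alone. Each thus entered the merged set through 1 wild type sample. Peak 99 lost the threshold in 3, peak 110 in 4, peak 111 in 7 and peak 114 in 8 of the 9 fits that left out 1 sample, with adjusted p of up to 0.0234, 0.0256, 0.0642 and 0.0303.

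Opening and closing peaks were interleaved near the lab end. Opening peak 13 and closing peak 15 are 1653 bp apart, with peak 14 (log2 fold change -0.05) between them. Opening peak 22 and closing peak 23 are 1333 bp apart, and opening peak 33 and closing peak 35 are 1360 bp apart. In bins of 50 kb along the window, the median log2 fold change was 0.04, 0.02, 0.31, 0.35, 0.16 and 0.28 in the first 6 bins and -0.38 in the last, with 15 peaks, at the Antp end. The FAIRE-seq median of that last bin was -0.73, while its ATAC-seq median was 0.06. In FAIRE-seq FRT82 lay below CantonS in peaks 103, 104, 106, 107, 111 to 113 and 115 to 117 of this bin. The ratios of FRT82 to CantonS there ran from 0.34 (peak 111) to 0.96 (peak 115). FRT82 lay above CantonS in peaks 105, 108 to 110 and 114, with ratios up to 1.51 (peak 110). Each strain had 1 FAIRE-seq sample, and the part of strain or library in this median was not tested. The opening peaks had low wild type ATAC-seq levels, with a median at the 18.1th percentile of all merged peaks, while that of the closing peaks was at the 60.2nd. These levels come from the wild types of the comparison itself, and their part in the calls was not tested.

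**Figure D3:**
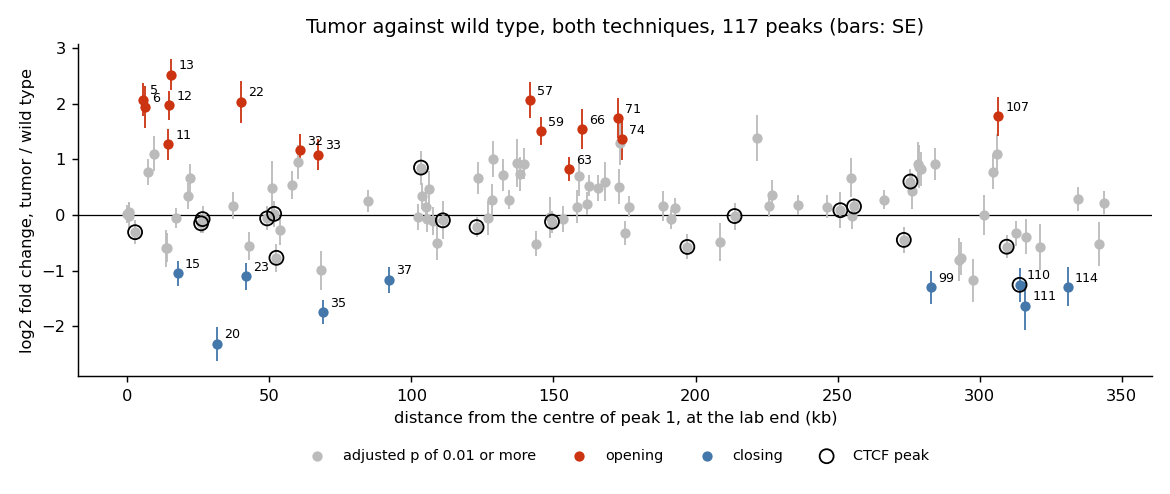
Log2 fold change of tumors against wild types over both techniques for the 117 peaks, against the distance in kb from the centre of peak 1, with bars for the SE, red for the 15 opening and blue for the 9 closing peaks, grey for the others and black circles for the 18 peaks with a CTCF peak. Of the 15 opening peaks, 11 lie among peaks 5 to 13 and 57 to 74, while closing peaks lie towards both ends.

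**Figure D4:**
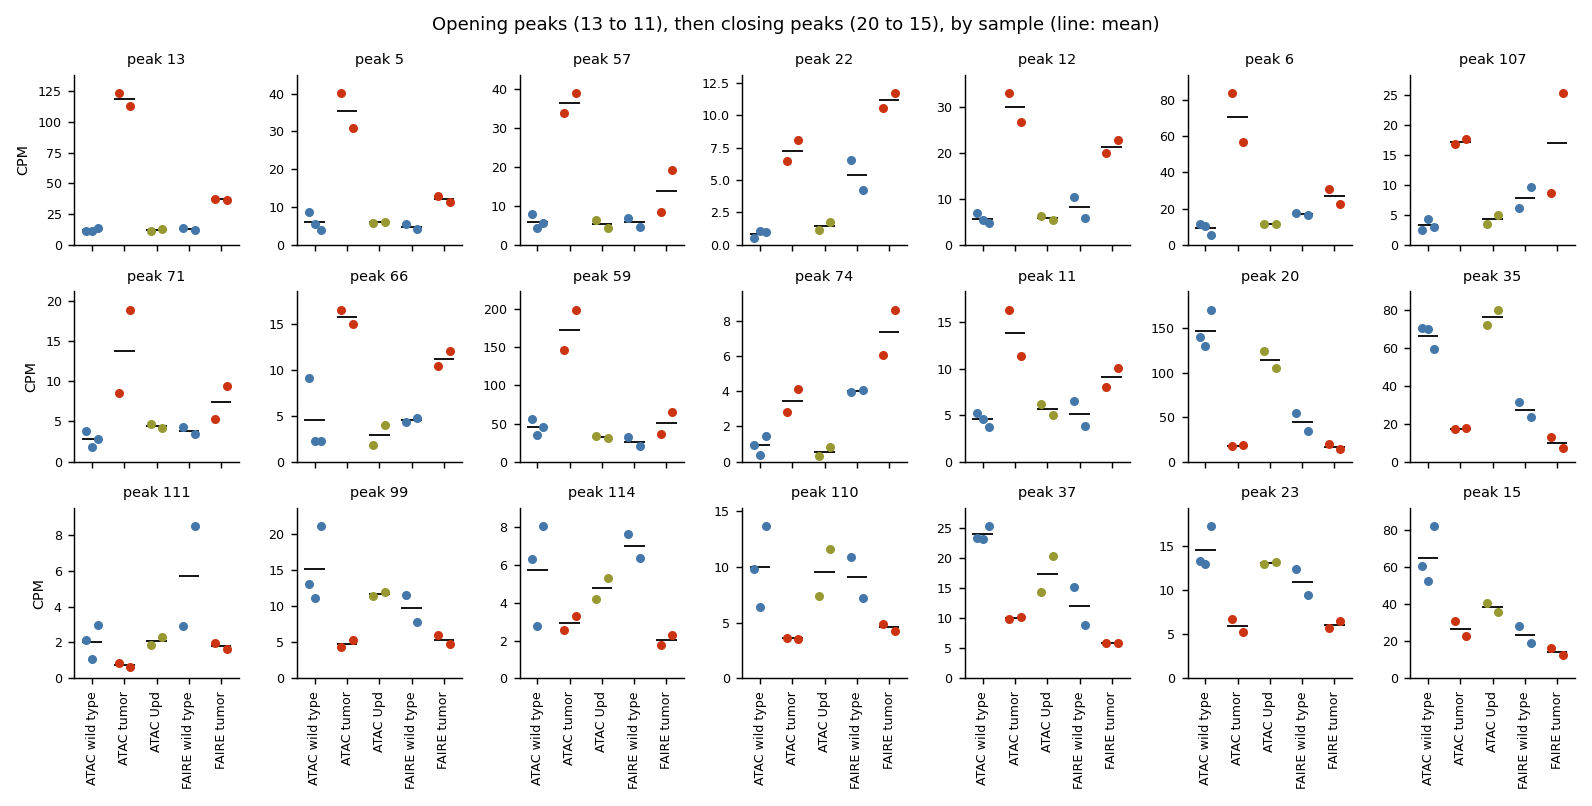
CPM by group for the 12 opening peaks with the largest fold change (peaks 13 to 11) and the 9 closing peaks (peaks 20 to 15), with 1 point per sample, a black line for the mean, blue for wild types, red for tumors (early left, late right) and olive for Upd. In peak 13 the Upd points lie near the wild type ATAC-seq points, and in peak 20 they lie below them and far above the tumors.

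Within ATAC-seq alone (3 wild types, 2 tumors), 26 peaks opened and 7 closed, which is 22.2% and 6.0% of the 117 peaks against 13.5% and 12.8% of all merged peaks. The median log2 fold change was 0.45, against 0.00 over all merged peaks, and 87 of the 117 peaks had a positive one. Without the late tumor 9 peaks opened (7.69%) and 2 closed, against 6.4% and 4.95% of all merged peaks, so that the share of opening peaks was then near the background. Without the early tumor 20 opened (17.1%) and 3 closed, against 8.45% and 6.22%. Within FAIRE-seq alone (2 wild types, 2 tumors), 1 peak opened and 1 closed, against 1.58% and 0.781% of all merged peaks, and the median log2 fold change was -0.05. No peak was called without the late FAIRE-seq tumor, against 0.121% and 0.0712% of all merged peaks, and 5 opened and 3 closed without the early one, against 4.93% and 3.17%. Without the FRT82 sample 3 opened and 2 closed, against 3.34% and 1.35%, and without the CantonS sample 1 opened and 2 closed, against 1.33% and 1.69%. With DESeq2's size factors the closing call was lost, so that the only call left was an opening one.

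Of the 26 peaks that opened in ATAC-seq, 13 had opened over both techniques. The other 13 had log2 fold changes between 1.08 and 2.35 in ATAC-seq and between -0.13 and 0.54 in FAIRE-seq. These peaks were chosen after their values were seen. Peak 83 (chr3R:2704405-2704673) had 2.0, 2.1 and 2.5 CPM in wild types and 7.3 and 14.8 in tumors by ATAC-seq, but 3.6 and 4.2 against 3.5 and 4.7 by FAIRE-seq. Peak 100 (chr3R:2766933-2767731) had 8.6, 11.7 and 14.1 against 29.0 and 39.98 by ATAC-seq, and 14.5 and 18.2 against 17.4 and 17.0 by FAIRE-seq. Peaks 96 and 98, which also opened in ATAC-seq, lie close to it towards lab, with closing peak 99 between peaks 98 and 100. Peak 51 (chr3R:2611650-2611990) had 10.1, 8.5 and 14.4 against 32.05 and 36.9 by ATAC-seq, and 17.0 and 9.2 against 10.0 and 17.95 by FAIRE-seq. In peaks 83, 100 and 51 the tumors were clearly apart from the wild types in ATAC-seq, while the FAIRE-seq groups overlapped. Of the 13 peaks, 1 (peak 7) had all tumors above the wild types in both techniques. Its FAIRE-seq values were 6.52 and 7.18 CPM in wild types and 9.58 and 8.65 in tumors.

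A direct test of the difference between techniques (the interaction of tumor and technique) called no peak of the complex (edgeR), against 0.011% of all merged peaks. DESeq2 called 2 higher (1.71%) and 1 lower (0.855%), against 0.863% and 0.457% of all merged peaks. At an unadjusted p of 0.05 there were 27 peaks (23.1%) with a larger value in ATAC-seq and 1 (0.855%) with a smaller one (edgeR), against 10.0% and 7.22% of all merged peaks. Without the late ATAC-seq tumor there were 13 (11.1%) and 1, against 7.07% and 5.93%. The lowest adjusted p were 0.022 for peak 13, 0.0224 for peak 6 and 0.0379 for peak 20. The 15 opening peaks all had larger fold changes in ATAC-seq than in FAIRE-seq, and so did 7 of the 9 closing peaks. Between 2375435 and 5792887 reads fell in merged peaks in the FAIRE-seq samples and between 5452448 and 10871706 in the ATAC-seq samples, and the part of depth in this was not tested.

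The early and late tumors were each compared with wild types in 1 model of all stages and both techniques. Early tumors had 5 opening and 2 closing peaks, against 4.21% and 2.86% of all merged peaks, and late tumors 10 opening and 5 closing, against 9.7% and 8.52%. Early tumors opened peaks 5, 6, 12, 13 and 57 and closed peaks 20 and 35. The log2 fold change of peak 13 was 2.57 in early and 2.48 in late tumors, and that of peak 20 was -2.15 and -2.47. Of these 7 early calls, all but peak 6 were also made in late tumors, where its adjusted p was 0.0142 (edgeR). Late tumors also opened peaks 22, 33, 59, 71, 105 and 107 and closed peaks 15, 24 and 28. Each stage has 1 sample per technique. Without its ATAC-seq tumor, where the lone FAIRE-seq sample is assumed to vary like the others, neither stage had a call in the complex or in any other merged peak. The early counts were 8 opening and 2 closing without the early FAIRE-seq tumor, against 5.47% and 4.01% of all merged peaks, and 3 and 0 without DGRP-208, against 1.71% and 1.04%. They were 4 and 1 without the FRT82 ATAC-seq sample, against 1.73% and 1.10%, and 7 and 1 without the FRT82 FAIRE-seq sample, against 3.85% and 1.53%. The late counts were 9 opening and 3 closing without the late FAIRE-seq tumor, against 5.25% and 3.20%.

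Late and early tumors did not differ past the threshold in any peak of the complex (edgeR), nor did any other merged peak (0%). DESeq2 also called none of the 117 peaks, and 2 had a higher and 2 a lower value in late tumors at an unadjusted p of 0.05, against 1.93% and 2.18% of all merged peaks (edgeR). The number higher at that p was 9 (7.69%, against 2.48%) without the late FAIRE-seq tumor and 7 (5.98%, against 3.32%) without the early ATAC-seq tumor. It was 0 (against 0.877%) without the late ATAC-seq tumor, 1 (against 1.45%) without the early FAIRE-seq tumor and 1 (against 1.96%) without the FRT82 ATAC-seq sample. When the early and late samples were fitted alone, 0 peaks were higher and 2 (1.71%) lower in late tumors past the threshold, against 0.381% and 0.474% of all merged peaks. At an unadjusted p of 0.05, 13 (11.1%) were higher and 8 (6.84%) lower in that fit, against 5.99% and 5.69%. Among the 15 opening peaks the late minus early log2 difference lay between -0.53 (peak 6) and 1.02 (peak 71), with 10 above 0, and among the closing peaks 7 of 9 were below 0. Peak 28 (chr3R:2535331-2535790), a CTCF-bound peak, had the lowest unadjusted p, with 53.3 CPM in the early and 25.3 in the late tumor by ATAC-seq and 20.9 and 10.4 by FAIRE-seq, against 65.97, 73.1 and 72.5 and 26.8 and 21.0 in the wild types. The log2 difference was -1.05 with an adjusted p of 0.915 (edgeR). Each stage and technique has 1 sample, and the values of the late tumor were the lowest in both techniques.

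Upd overexpressing discs were compared with wild types in ATAC-seq (2 against 3 samples) to ask which regions respond to JAK/STAT activity alone. No peak of the complex was called in either direction (edgeR, DESeq2), against 0.00548% higher and 0.011% lower of all merged peaks. At an unadjusted p of 0.05, 1 peak was higher and 4 were lower (edgeR), against 3.13% and 3.93% of all merged peaks, with an adjusted p of 0.524 at the lowest, for peak 15 (40.5 and 36.1 CPM against 60.6, 52.6 and 82.0 in wild types). These counts moved with single samples. Without DGRP-208, 1 was higher, against 4.68% of all merged peaks, and 10 (8.55%) were lower, against 5.88%. Without FRT82 they were 3 and 1, against 3.07% and 3.97%, and without Optix-GFP 2 and 3, against 4.64% and 5.64%. The median log2 fold change was 0.00. It was 0.05 without the first and -0.09 without the second Upd sample, where 1 Upd sample is left. Upd and tumors were set against the same wild type samples. The 15 peaks that opened in tumors had log2 fold changes between -0.67 and 0.80 in Upd discs, with 7 above 0, and the 9 closing peaks between -0.75 and 0.20, with 2 above 0. Peak 13, the largest opening in tumors, had 11.1 and 13.2 CPM in Upd discs, within or close to the range of the wild types. An adjusted p above the threshold with 2 samples does not show that Upd left these peaks as they were.

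CTCF is a zinc finger protein that binds insulators and boundaries of chromatin domains, and the boundaries of fly Hox complexes are among its known sites. Of 3679 CTCF peaks called in wild type discs, 24 lie in the window, spread from chr3R:2485705 to chr3R:2799497. With at least 40% of a CTCF peak covered, 18 of the 24 (75.0%) overlapped a merged peak, compared with 58.7% of all CTCF peaks. At any overlap there were 22. The CTCF peaks at chr3R:2583201-2583437 and chr3R:2735299-2735630 overlapped none. Read from the merged peaks, 18 of 117 (15.4%) held CTCF, against 5.8% of all merged peaks. They are peaks 4, 18, 19, 25, 27, 28, 39, 46, 47, 61, 80, 82, 88, 91, 93, 94, 108 and 110. ChIP-seq had 1 sample, and the CTCF list gives positions alone, so that binding has no level here.

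The CTCF-bound peaks ranked higher in FAIRE-seq than in ATAC-seq. Their median wild type level was at the 80.1th percentile of all merged peaks in FAIRE-seq and at the 54.2nd in ATAC-seq, while the medians of the other 99 peaks were at the 31.7th and 42.7th. The FAIRE-seq rank was above the ATAC-seq rank in 14 of 18 CTCF-bound and 32 of 99 other peaks. Peak 25 (chr3R:2532134-2532441) had 12.5, 14.4 and 16.9 CPM in wild type ATAC-seq and 47.1 and 34.2 in wild type FAIRE-seq samples, and peak 47 (chr3R:2605820-2606163) had 14.2, 19.3 and 17.0 against 45.3 and 41.8. Peak 82 (chr3R:2696630-2696915) had 6.45, 9.93 and 8.84 against 30.4 and 25.1. The reverse held for peak 28, which had a rank at the 91.6th percentile in ATAC-seq and the 53.1st in FAIRE-seq, and for peaks 91, 93 and 110. Over all merged peaks with CTCF, the median ratio of FAIRE-seq to ATAC-seq CPM in wild types was 0.874, against 1.39 in the 18 peaks of the complex.

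Of the 18 CTCF-bound peaks, 1 closed in tumors over both techniques (peak 110) and 0 opened (edgeR). Peak 110 lost its call without either ATAC-seq tumor, the FRT82 FAIRE-seq sample or the late FAIRE-seq tumor, which left no CTCF-bound peak called. Without the early FAIRE-seq tumor peak 28 closed as well, with a log2 fold change of -0.98 and an adjusted p of 0.00479, against 0.0252 with all samples (edgeR). DESeq2 also called 1 closing and 0 opening, and at an unadjusted p of 0.05, 2 were higher and 4 lower (edgeR), against 21.2% and 24.8% of all merged peaks. Their log2 fold changes lay between -1.25 and 0.85 with a median of -0.11, while the 99 other peaks had a median of 0.28, 15 opening and 8 closing. Among these 8 is peak 111, which lies within a CTCF peak but covers less than 40% of it. Of all 2119 merged peaks with CTCF, 71 opened and 129 closed. Peak 18 (chr3R:2508905-2509239) had 40.4, 39.1 and 36.5 CPM in wild type and 40.4 and 40.4 in tumor ATAC-seq samples, and peak 61 (chr3R:2632367-2632693) had 8.73, 11.7 and 10.3 against 10.97 and 9.89. In FAIRE-seq both tumors lay below both wild types in these peaks, with 34.4 and 39.0 against 30.1 and 26.9 CPM for peak 18 and 31.2 and 34.4 against 27.6 and 28.4 for peak 61. Over the 18 peaks the median log2 fold change was -0.24 in FAIRE-seq, with 4 above 0, and 11 were above 0 in ATAC-seq. In ATAC-seq alone, peak 39 (chr3R:2586323-2586533) rose from 4.84, 3.44 and 4.75 to 11.6 and 12.8 CPM and peak 94 (chr3R:2758498-2758782) from 21.2, 15.5 and 17.7 to 34.4 and 44.7, with log2 fold changes of 1.495 (adjusted p = 0.00204, edgeR) and 1.13 (adjusted p = 0.00327, edgeR). Their FAIRE-seq log2 fold changes were 0.08 and 0.02. The CTCF sample was wild type, and binding in tumors was not measured.

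**Figure D5:**
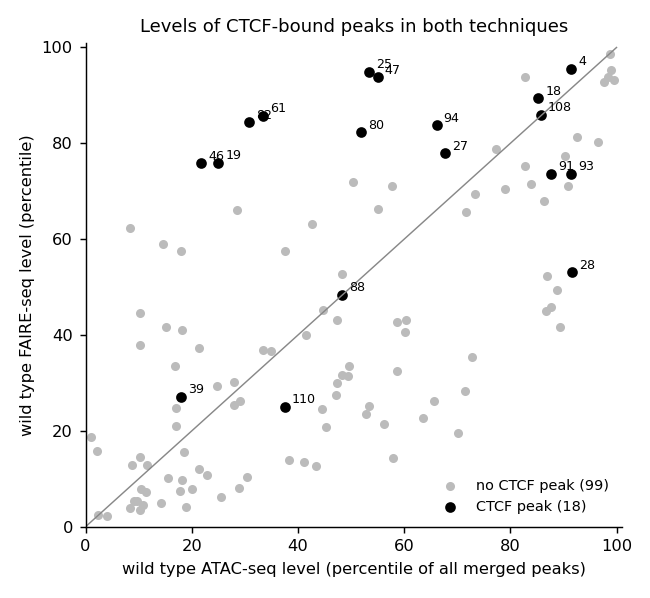
Wild type ATAC-seq level per length against wild type FAIRE-seq level per length of the 117 peaks, each as a percentile of all merged peaks. Black points mark the 18 peaks that cover at least 40% of a CTCF peak, and the line marks equal ranks. Grey points mark the other 99, which include peaks 38, 89, 90, 109, 111 and 112 that lie within CTCF peaks. Of the black points, 14 lie above the line, and of the grey points, 32.

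The peak calls of single samples give another view of the complex. The number of the 117 peaks called was 71, 58 and 70 in the wild type ATAC-seq samples FRT82, DGRP-208 and Optix-GFP, 75 in the early and 88 in the late tumor, and 65 and 70 in the Upd samples. In FAIRE-seq it was 41 in FRT82, 52 in CantonS, 51 in the early and 55 in the late tumor. Both ATAC-seq tumors thus had more calls in the complex than any wild type when any overlap counts. Where the call had to cover 40% of the merged peak, the early tumor had 66 and FRT82 67, so that the late tumor alone, with 82, lay above the wild types. Over all merged peaks, at any overlap, the early and late ATAC-seq tumors had 49.8% and 55.0% called. The wild types of that technique had between 54.6% and 61.1% and the Upd samples 56.3% and 58.4%. In FAIRE-seq the early and late tumors had 46.6% and 50.9% of all merged peaks called, against 40.5% in FRT82 and 48.4% in CantonS. For calls covering 40% of the merged peak, the share over all merged peaks was not taken. Of the 117 peaks, 31 (26.5%) were called in all 11 samples and 24 (20.5%) in a single one, near the 24.7% and 20.9% of all merged peaks. Peaks called in tumors but in no wild type or Upd sample numbered 27 (23.1%), against 15.7%, and peaks called in no tumor 18 (15.4%), against 29.0%. Among the 27, peaks 26, 52, 54, 56, 70, 73, 83, 89, 97, 105 and 106 were called in the late ATAC-seq tumor alone. Peaks 8, 74 and 95 were called in a single other tumor sample each. The late ATAC-seq tumor had the most reads in merged peaks (10871706), and the part of depth in these calls was not tested. Of the 117 peaks, 47 (40.2%) were called in ATAC-seq only and 7 (6.0%) in FAIRE-seq only, against 33.8% and 11.5% of all merged peaks.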

How the data were processed

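ATAC-seq was measured in 7 and FAIRE-seq in 4 samples of eye-antennal discs, and CTCF ChIP-seq in 1. The authors trimmed adapters, aligned with bowtie2 to dm3, removed Wolbachia reads and alignments of low quality, moved ATAC-seq reads onto their transposase cut sites and called peaks per sample with MACS2. They merged the peaks of the open chromatin samples and deposited the count of reads per merged peak from htseq-count, without normalization, and the positions of the peaks of each sample without scores. The submitters' processing notes also name CASAVA 1.8.2. Positions are given here counted from 1 in dm3.

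All merged peaks with a read were fitted with edgeR 4.0.16 in R 4.3.3 (TMM, robust quasi-likelihood test), with Benjamini-Hochberg adjustment over all of them and a threshold of 0.01. The technique was a term where both were used. Log2 fold changes carry the SE of that fit. The fits were also run on simulated counts with planted changes. That simulation had no strain differences, so it does not test the fits at the spread of these samples. Overlaps came from bedtools 2.31.1, with a minimum of 40% of a CTCF peak, and correlations a log2 scale of CPM with a pseudocount of 1. Reads have no molecular identifiers, and the wild types of a technique are of different strains, so that p-values measure the spread between these samples, strain included. How the Upd replicates were separated is not given in the sources used here.

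Named peaks were the 12 opening and 12 closing peaks of largest fold change in the combined comparison (9 closing were called), the 10 highest in wild type ATAC-seq, those with CTCF, up to 6 in each direction in Upd (0 called) and the widest. Members and lists were chosen with earlier results of these data known. Marker and gene lists were not used here, since the annotation at hand is of another build. The alternatives were DESeq2 1.42.0 (its size factors and its Wald test), total counts, a filter on low counts, a threshold of 0.05, no technique term, other sample sets, other overlaps and each sample left out. The ChIP input was not analysed here.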

Additional observations from a re-analysis of the deposited data

How the results depend on the processing

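Over both techniques, the DESeq2 Wald test called 23 opening peaks (19.7%, against 15.6% of all merged peaks) and 9 closing ones (7.69%, against 13.6%), a threshold of 0.05 gave 27 opening (23.1%, against 17.5%) and 13 closing peaks (11.1%, against 20.1%), and without the technique term 5 opened (4.27%, against 4.19%) and 2 closed (1.71%, against 5.11%). Over both techniques, leaving out 1 sample at a time gave 9 to 23 opening peaks, against 7.22% to 13.2% of all merged peaks. It gave 3 to 9 closing ones, against 6.44% to 14.4%. With 1 wild type left out, ATAC-seq alone had 22 to 28 opening peaks (18.8% to 23.9%), against 11.7% to 13.1%. It had 6 to 7 closing ones, against 11.5% to 13.2%. Early tumors then had 3 to 7 and 0 to 3, against 1.71% to 4.90% and 1.04% to 4.83%. Late tumors had 8 to 15 and 4 to 7, against 7.29% to 9.61% and 5.85% to 9.78%. Fits of FAIRE-seq alone, and those that left 1 sample of a tumor stage or of the ATAC-seq tumors, are given above. In FAIRE-seq, DESeq2's size factors left 0 closing peaks (against 0.611% of all merged peaks) and a threshold of 0.05 gave 4 opening and 4 closing (3.42% each, against 4.71% and 3.03%). DESeq2 called 10 opening and 3 closing peaks in early tumors (8.55% and 2.56%, against 8.1% and 6.31% of all merged peaks) and 19 and 7 in late tumors (16.2% and 5.98%, against 12.7% and 10.8%), and for the difference between techniques 2 higher and 1 lower. Late and early samples fitted alone gave 2 peaks lower in late tumors (1.71%, against 0.474% of all merged peaks). The cause of these shifts was not tested. Total counts in place of TMM raised the median log2 fold change of all merged peaks to 0.101 from -0.008 in Upd and moved it to -0.097 from 0.01 in FAIRE-seq.

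Of the 21 named opening or closing peaks, 8 opening (peaks 5, 6, 12, 13, 22, 57, 59 and 107) and 3 closing ones (peaks 20, 35 and 37) stayed past the threshold with any 1 sample left out. Over 315 alternative fits of the 21 peaks, 260 kept the call, 55 lost it and 0 changed sign. Named peaks near 0 changed sign in some fits without passing the threshold. With DESeq2's size factors in edgeR the log2 fold change was 0.01 for peak 78, 0.009 for peak 19, 0.023 for peak 25 and 0.064 for peak 82, with the DESeq2 Wald test 0.01 for peak 78, 0.021 for peak 25, 0.001 for peak 46 and 0.059 for peak 82, with total counts -0.02 for peak 27, and with no technique term 0.03 for peak 19 and 0.033 for peak 82. With 1 sample left out, it ranged from -0.227 to 0.015 for peak 78, -0.008 to 0.246 for peak 79, -0.164 to 0.014 for peak 19, -0.229 to 0.1 for peak 25, -0.072 to 0.224 for peak 27, -0.527 to 0.145 for peak 46, -0.251 to 0.089 for peak 82 and -0.08 to 0.32 for peak 88.

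Of the 24 CTCF peaks, 11 lay in a merged peak by at least 80% of their length. With total counts in place of TMM, the summed CPM of the window was 3986.3 in the early ATAC-seq tumor (4674.6 with TMM), and by FAIRE-seq 2794.4 in FRT82, 2696.9 in CantonS, 2614.9 for early and 2442.9 for late tumors. No paired analysis was possible because the labels number replicates for Upd alone, and the numbers of the other samples, given in accession order, tie none of them together. Each stage of the tumors has 1 sample per technique and Upd has 2 samples, which limits what these comparisons can show, and narrow peaks such as peaks 74 and 111 rest on few reads.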
